A study of Homo sapiens with 6 samples.

Results

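The genes described here encode the enzymes that build glycosaminoglycans and the cell surface proteins that carry them. They were chosen by symbol as a list of 43 genes: enzymes of UDP-sugar supply, of the linker, and of chondroitin and heparan sulphate synthesis and modification, with the core proteins of the syndecan and glypican families. All 43 symbols were in the count table of 23368 symbols, and 38 had enough reads to be tested. RNA was sequenced from HCT116, an established human colon cancer line, after treatment with siADNP, an siRNA against the chromatin-associated zinc finger protein ADNP, or with siControl, a control siRNA, in 3 libraries each. Both groups are the same line, so nothing here shows how another line or tissue responds, and the labels give no siRNA sequence, dose or time after transfection. Replicates are described as biological, but not whether separate cultures or transfections stand behind them, and the p-values therefore speak only of the variation among these libraries, part of which may be technical.

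Glycosaminoglycans are long sugar chains built in the Golgi on serine residues of core proteins. A short linker is made first, and the next sugar added commits the chain to chondroitin sulphate, with N-acetylgalactosamine, or to heparan sulphate, with N-acetylglucosamine. Polymerases then lengthen the chain, and epimerases and sulphotransferases change its sugars, which sets the proteins that the chain can bind. In epithelial cells, syndecans and glypicans carry heparan sulphate at the surface, where it is known to bind growth factors, WNT proteins and matrix.

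Reads assigned to genes numbered from 7396771 to 10265175 per library, or 26.4% to 27.2% of reads with siADNP and 27.7% to 28.3% with siControl. The line for reads outside annotated features took 54.4% to 55.7% with siADNP and 53.5% to 54.3% with siControl, and the part of this difference in the results was not tested. Levels in CPM are counts scaled to the total reads of the tested genes, with TMM factors. ADNP stood at 171, 155 and 167 CPM in siControl replicates 1 to 3 and at 46.7, 55.3 and 59.8 CPM in siADNP replicates 1 to 3. The target was therefore low in every library labelled siADNP (log2 fold change -1.61 ± 0.066 SE). The epithelial markers EPCAM, CDH1, KRT8 and KRT18 were present in both groups and did not pass, and VIL1 and CDX1 were at 0 in every library. Of these, CDH1 was higher with siADNP without overlap between groups (log2 fold change 0.16, adjusted p = 0.0688, edgeR). Its libraries were at 62.9, 60.9 and 52.9 CPM with siControl and 65.4, 68.0 and 64.8 CPM with siADNP. KRT19 fell from 491 to 444 CPM in the mean, without overlap between groups (log2 fold change -0.15, adjusted p = 0.0203, edgeR). The part of this fall in the results was not tested. CDX2, at 7.41 CPM with siControl and 8.49 CPM with siADNP, did not pass, and KRT20 and CDH17 were below the count filter. These 10 markers summed to 3018 to 3230 CPM with siADNP and 3127 to 3191 CPM with siControl. Of 11 fibroblast and muscle markers, DCN, LUM, PDGFRA and FAP were at 0 throughout, and the list summed to 14.8 to 19.5 CPM with siADNP and 14.9 to 18.9 CPM with siControl. Within it the muscle genes DES and ACTA2 went opposite ways. DES stood at 1.38 CPM in the mean with siControl and 4.94 CPM with siADNP (adjusted p = 5.48e-06, edgeR). It had only 15, 14 and 9 reads in siControl replicates 1 to 3. Replicate 3, at 1.09 CPM, was under the count filter's 1.18 CPM. The siControl libraries alone would not have kept DES in the test, so its p-value is no support for a rise. ACTA2 fell from 7.96 to 3.81 CPM (adjusted p = 0.000127, edgeR). The part of both genes in the results was not tested. The 8 blood markers, of which MS4A1 and HBB were at 0 throughout, summed to 9.74 to 11.4 CPM with siADNP and 6.87 to 8.52 CPM with siControl, mostly from CD68, a protein also of lysosomes, and the 5 endothelial markers, with CDH5 at 0 throughout, to 0.899 to 1.02 CPM and 0.787 to 1.91 CPM. The part of the blood markers' difference in the results was not tested. In bulk RNA, fewer cells of a type and less RNA per cell cannot be told apart.

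Most of the genes that passed the test rose with siADNP. Of the 38 tested genes, 18 rose, 1 fell and 19 did not pass (edgeR's quasi-likelihood test, adjusted p under 0.05 over all 12489 tested genes). Over all genes in the fit, 28.3% of tested genes were called, 14.6% as higher and 13.7% as lower; of the pathway's tested genes, 19 of 38 were called and 47.4% were higher. The median log2 fold change of the 38 was 0.20, against -0.0013 over all tested genes, and 33 of the 38 values were positive. The siADNP libraries all lay above the siControl libraries in 23 of the 38 and all below in 1, where 40.8% of all tested genes kept their groups apart (20.1% above and 20.7% below). The rises were mostly small: 7 of the 19 called genes changed at least 1.5-fold, namely CHPF, CHSY3, CHST12, UST, SULF2, CHST14 and, downward, SDC4. These are 18.4% of the 38 tested, where 4.99% of all tested genes were called with a change of that size. Each of the 38 exceeded the count filter in all libraries of both groups, so none was tested only because of 1 group. Together the 43 genes took 1401, 1412 and 1417 CPM in the siControl libraries and 1621, 1671 and 1659 CPM in the siADNP libraries; without CHPF the sums were 1349, 1357 and 1357 CPM against 1489.9, 1527 and 1519 CPM.

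**Figure D1:**
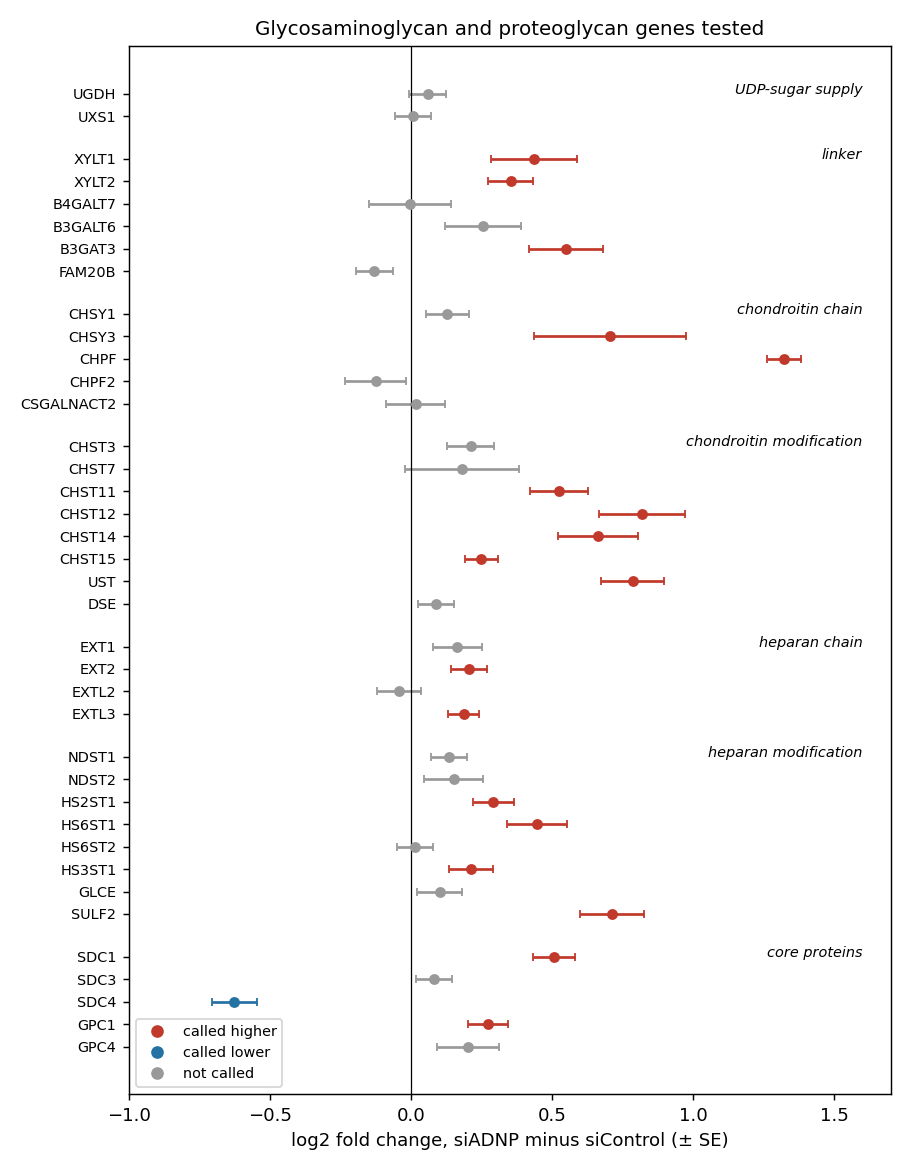
Log2 fold change, siADNP minus siControl, with its standard error, for the 38 tested genes grouped by their place in the pathway; red marks genes called higher, blue the gene called lower and grey those not called. CHPF stands farthest to the right at 1.32, SDC4 farthest to the left at -0.63, and 33 of the 38 points lie right of 0.

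Genes called higher over the whole table were GC-rich, with a median GC content of 54.0% in their longest transcript, against 43.03% for genes called lower and 48.4% for all tested genes. The 18 pathway genes that rose had a median of 52.3% and the 19 that did not pass 44.8%. With an offset for GC content fitted in each library, 17 of the 19 calls remained; those of GPC1 (log2 fold change 0.12, adjusted p = 0.204) and CHSY3 (adjusted p = 0.0524) did not, by edgeR. In the deposited variance-stabilized values, which compress the differences of weakly read genes, the median over the 38 was 0.11 and the same 19 genes passed with limma, with differences from -0.39 for SDC4 to 0.99 for CHPF.

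Neither gene of UDP-sugar supply passed. UGDH, which makes UDP-glucuronic acid, stood at 72.8, 66.4 and 68.96 CPM in siControl replicates 1 to 3 and at 75.00, 73.6 and 67.6 CPM with siADNP (log2 fold change 0.058 ± 0.064 SE, adjusted p = 0.533, edgeR). UXS1, which turns that sugar into UDP-xylose for the start of the linker, stood at 67.5, 72.3 and 64.4 CPM and 69.6, 67.8 and 68.2 CPM (0.0072 ± 0.064, adjusted p = 0.948, edgeR). The groups overlapped in both genes. edgeR called none of the 2, the count at an unadjusted p under 0.05 was 0, and DESeq2 called 0.

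Of 6 linker genes 3 rose, those for its first and last sugar, and those between did not pass. Xylosyltransferases start the linker on the core protein. XYLT2 stood at 33.9, 30.7 and 35.2 CPM with siControl and 43.9, 43.5 and 39.5 CPM with siADNP, without overlap between groups (0.35 ± 0.080 on the log2 scale, adjusted p = 0.000881, edgeR). Its paralogue XYLT1 stood at 8.41, 6.89 and 8.80 CPM and 12.5, 10.1 and 9.90 CPM (0.44 ± 0.15, adjusted p = 0.0276, edgeR), also without overlap. The XYLT1 call ended without siADNP replicate 1 (adjusted p = 0.164), without siControl replicate 2 (0.160), with GC offset and replicate block together (0.0510) and in DESeq2's Wald test (0.143), over a range of 0.0211 to 0.164 in its alternatives. B3GAT3, the glucuronyltransferase that completes the linker, stood at 11.1, 8.85 and 10.2 CPM with siControl and 14.1, 14.5 and 15.5 CPM with siADNP, from 10.1 ± 1.13 to 14.7 ± 0.685 CPM (SD, n = 3 each), and rose with 0.55 ± 0.13 (adjusted p = 0.00148, edgeR). Every siADNP library was above every siControl library. The galactosyltransferases between these steps did not pass. B4GALT7, which adds the first galactose, had a log2 fold change of -0.0040 ± 0.15 and overlapping groups, and B3GALT6, which adds the next one, 0.26 ± 0.13 (adjusted p = 0.157, edgeR), with siADNP at 12.97, 13.6 and 12.7 CPM just above siControl at 11.3, 9.25 and 12.7 CPM. FAM20B, the kinase that phosphorylates the linker xylose and so speeds its extension, was at 78.03, 72.9 and 75.5 CPM and 64.7, 74.5 and 66.97 CPM, with -0.13 ± 0.065 (adjusted p = 0.131, edgeR). It passed as lower without siADNP replicate 2 (adjusted p = 0.0368, log2 fold change -0.20).

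CHPF rose most in the whole pathway. It encodes chondroitin polymerizing factor, the partner that chondroitin synthases need to lengthen the chain. CHPF stood at 52.02, 54.8 and 59.7 CPM in siControl replicates 1 to 3 and at 132, 144 and 139.8 CPM in siADNP replicates 1 to 3. The highest siControl library reached less than the lowest siADNP library, and the fitted change was 2.50-fold, or 1.32 ± 0.061 on the log2 scale (adjusted p = 9.30e-19, edgeR), with the smallest p of all tested genes after ADNP. In the alternatives its log2 fold change ranged from 0.99, in the deposited variance-stabilized values, to 1.37, and with the GC offset it was 1.16. Exons of CHPF overlap those of TMEM198 on the opposite strand by 125 bases in a newer annotation (GENCODE 29), and the strand setting of the counting is not given. TMEM198 held 4 to 10 reads per library in both groups, at 1.01, 0.787 and 0.482 CPM with siControl and 0.771, 1.13 and 0.949 CPM with siADNP. CHPF2 shares 118 bases with MIR671 on the same strand, which held 0 reads in every library. In that annotation XYLT1, XYLT2, CHSY3, UST, EXTL2, EXTL3 and SULF2 share exon bases with an opposite-strand gene, and DSE, NDST2 and HS2ST1 with a further protein-coding gene. None of these overlapping genes is in the count table under that name. Whether reads of theirs were counted for the members cannot be told.

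Of the other 4 tested chondroitin chain genes, CHSY3 rose and 3 did not pass. CHPF2, the paralogue of CHPF, stood at 21.5, 19.3 and 19.05 CPM with siControl and 20.03, 16.8 and 18.2 CPM with siADNP (-0.13 ± 0.11, adjusted p = 0.403, edgeR), and the groups overlapped. CHSY1, a chondroitin synthase with both transferase activities, was at 38.01, 35.8 and 39.5 CPM and 41.9, 41.3 and 40.4 CPM (0.13 ± 0.076, adjusted p = 0.213, edgeR), with the siADNP libraries narrowly above. CHSY3, its weakly expressed paralogue, rose from 1.79, 1.77 and 3.38 CPM to 3.21, 3.85 and 4.07 CPM (0.70 ± 0.27, adjusted p = 0.0462, edgeR), although siControl replicate 3 lay above siADNP replicate 1. The CHSY3 call rests on few reads and ended without siADNP replicate 2 or 3 (adjusted p = 0.113 and 0.125), without siControl replicate 1 or 2 (0.180 and 0.207), with the GC offset (0.0524) and in DESeq2 (0.200), over a range of 0.00983 to 0.207 in its alternatives. CSGALNACT2, which adds the first N-acetylgalactosamine and so starts chondroitin on the linker, was at 19.4, 22.5 and 21.6 CPM and 21.96, 22.99 and 19.1 CPM (0.016 ± 0.10), with overlapping groups. Its paralogue CSGALNACT1 had 6 reads over the siControl libraries and 15 over the siADNP libraries and was below the count filter. Summed over the 6 chondroitin chain genes, the level was 133, 135 and 143 CPM with siControl and 219, 229 and 222 CPM with siADNP. Without CHPF the sums were 80.8, 79.8 and 83.7 CPM against 87.8, 85.3 and 82.6 CPM, which overlap.

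The bases before the start sites of CHPF, B3GAT3 and CHPF2 are shown because CHPF and CHPF2 are paralogues with unlike values and because CHPF and B3GAT3 were the only members whose scanned window held the letters TGACGTCA, the cAMP response element (CRE). Sequences are from RefSeq, build GRCh38.p14, which is not the build of the counts, and each gives the 250 bases before a listed start, 5′ to 3′; the capitals mark TGACGTCA. The windows lie at chr2:219543810-219544059, minus strand for CHPF, at chr11:62621987-62622236, minus strand for B3GAT3 and at chr7:151232233-151232482, plus strand for CHPF2. CHPF has 2 listed starts, and the window that holds the letters is shown.
CHPF: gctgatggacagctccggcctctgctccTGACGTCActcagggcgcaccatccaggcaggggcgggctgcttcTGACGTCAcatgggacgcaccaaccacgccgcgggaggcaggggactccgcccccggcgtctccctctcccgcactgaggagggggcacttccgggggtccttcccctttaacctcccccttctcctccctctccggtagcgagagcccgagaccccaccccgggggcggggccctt
B3GAT3: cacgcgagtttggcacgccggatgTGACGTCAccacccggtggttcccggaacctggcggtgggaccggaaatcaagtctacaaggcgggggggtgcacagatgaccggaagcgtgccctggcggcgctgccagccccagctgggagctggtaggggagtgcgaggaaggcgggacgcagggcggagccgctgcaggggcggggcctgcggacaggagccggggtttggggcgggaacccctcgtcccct
CHPF2: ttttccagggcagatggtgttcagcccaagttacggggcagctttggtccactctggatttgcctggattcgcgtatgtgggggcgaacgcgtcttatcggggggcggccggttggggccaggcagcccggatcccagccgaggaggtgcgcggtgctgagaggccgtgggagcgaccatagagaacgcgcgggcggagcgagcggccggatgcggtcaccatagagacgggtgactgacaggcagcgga
The CHPF window holds 2 copies and the B3GAT3 window 1. Read on both strands, TGACGTCA is present in 2 of the 53 windows of members, or 3.77%. The share is 2.46% of the windows of tested genes and 1.65% of all 35116 promoter windows of this length. Windows with 2 or more copies number 19 of all, or 0.0541%, and 11 of those of tested genes, or 0.0843%. In these windows the other start of CHPF has none. Both genes rose, but a match of letters shows neither a bound factor nor a cause, and it was looked for with the changes known. The E box CACGTG was in 7.55% of the 53 windows of the 38 members matched in the table, 8.22% of those of tested genes and 6.34% of all windows. In the same order, the AP-1 letters TGANTCA were in 5.66%, 4.33% and 6.57%, CCAAT in 18.9%, 32.9% and 32.0%, and TATAAA in 3.77%, 5.56% and 10.7%, each on both strands.

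Genes that modify chondroitin and dermatan sulphate rose in most cases, with 5 of 8 tested genes higher, none lower by edgeR (0 at an unadjusted p under 0.05 and 0 in DESeq2) and a median log2 fold change of 0.39. CHST11 and CHST12 sulphate the fourth carbon of N-acetylgalactosamine. CHST11 stood at 17.7, 15.6 and 17.96 CPM with siControl and 24.1, 24.01 and 25.5 CPM with siADNP (0.52 ± 0.10, adjusted p = 0.000144, edgeR). CHST12 stood at 6.50, 7.18 and 7.11 CPM and 14.6, 11.7 and 10.4 CPM (0.82 ± 0.15, adjusted p = 8.11e-05, edgeR), with siADNP replicate 1 the highest. In both genes every siADNP library was above every siControl library. UST, which sulphates the uronic acid of chondroitin and dermatan chains, rose from 14.5, 14.95 and 12.4 CPM to 21.2, 25.6 and 25.6 CPM, or from a mean of 13.9 ± 1.34 to 24.1 ± 2.55 CPM (SD, n = 3 each; 0.79 ± 0.11, adjusted p = 1.13e-06, edgeR). CHST14, the sulphotransferase of dermatan sulphate, rose from 7.51, 7.67 and 7.11 CPM to 12.1, 11.7 and 11.7 CPM (0.66 ± 0.14, adjusted p = 0.000511, edgeR). The libraries of each group lay close together and the groups far apart. DSE, the epimerase that turns chondroitin into dermatan and acts before CHST14, was at 58.9, 63.6 and 60.5 CPM and 63.4, 64.1 and 67.2 CPM (0.087 ± 0.065, adjusted p = 0.329, edgeR), with overlapping groups. CHST15, which adds a further sulphate to N-acetylgalactosamine that is already sulphated, was the most read gene of the class and rose from 108, 108 and 98.7 CPM to 115, 128 and 131 CPM (0.25 ± 0.058, adjusted p = 0.00117, edgeR). CHST3 and CHST7, which sulphate the sixth carbon of N-acetylgalactosamine, did not pass. CHST3 was at 35.8, 33.2 and 33.2 CPM and 44.7, 37.03 and 36.6 CPM, without overlap (0.21 ± 0.084, adjusted p = 0.0546, edgeR), and passed with upper-quartile scaling (0.0332), library totals (0.0427), without siADNP replicate 2 (0.0380) and without siADNP replicate 3 (0.0365). CHST7, at 4.60, 4.82 and 4.34 CPM and 6.42, 4.87 and 4.34 CPM, had 0.18 ± 0.20 and overlapping groups. CHST13, a further fourth-carbon enzyme, had 8 reads over the siControl libraries and 5 over the siADNP libraries and was not tested.

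**Figure D2:**
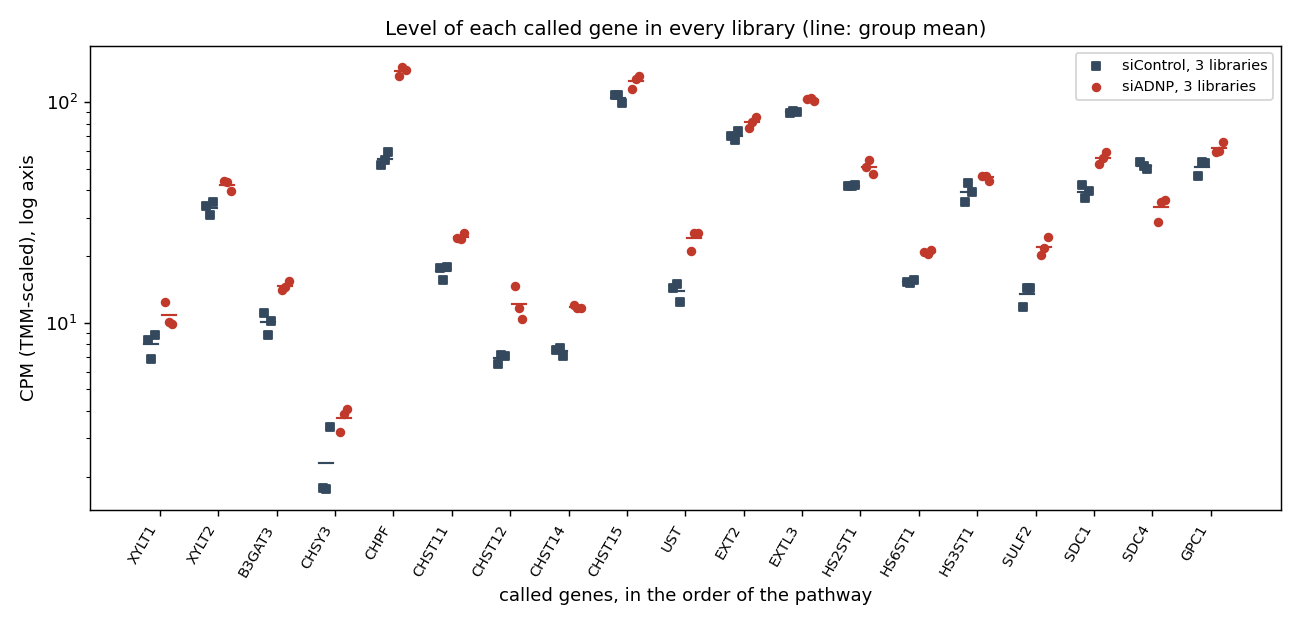
Level of the 19 called genes in every library, in CPM on a log axis, with squares for siControl, circles for siADNP and a line at each group mean, from the linker on the left to the core proteins on the right. Apart from CHSY3, where siControl replicate 3 at 3.38 CPM lies above siADNP replicate 1 at 3.21 CPM, the groups do not overlap.

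Of the 4 tested genes of heparan sulphate polymerization, 2 rose by small amounts and none fell by edgeR (0 at an unadjusted p under 0.05 and 0 in DESeq2). EXT1 and EXT2 encode the subunits of the polymerase. EXT2 stood at 70.1, 67.3 and 74.02 CPM with siControl and 76.5, 81.4 and 85.4 CPM with siADNP (0.21 ± 0.063, adjusted p = 0.0127, edgeR), without overlap. This call ended without siADNP replicate 3 (adjusted p = 0.0645), without siControl replicate 2 (0.0815) and in DESeq2 (0.0631), over a range of 0.00576 to 0.0815 in its alternatives. EXT1 was at 25.7, 27.6 and 29.2 CPM and 30.4, 30.5 and 31.5 CPM (0.16 ± 0.087, adjusted p = 0.161, edgeR), with the siADNP libraries above but short of the threshold. EXTL3, which adds the first N-acetylglucosamine and so starts heparan sulphate on the linker, rose from 89.7, 91.3 and 89.8 CPM to 103, 104 and 101 CPM, the libraries of a group differing little (0.19 ± 0.056, adjusted p = 0.0105, edgeR). EXTL2, a related transferase known to act on the phosphorylated linker, was at 40.1, 39.4 and 39.1 CPM and 35.3, 38.8 and 41.1 CPM (-0.043 ± 0.078), with overlap. EXTL1 had 4 reads over the siControl libraries and 2 over the siADNP libraries and was not tested.

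Among the enzymes that modify heparan sulphate, 4 of 8 tested genes rose and the other 4 did not pass. NDST1 and NDST2 replace the acetyl group of glucosamine with sulphate, the first step of modification, and neither passed: NDST1 was at 59.4, 64.03 and 63.8 CPM and 68.6, 71.8 and 64.8 CPM (0.13 ± 0.065, adjusted p = 0.122, edgeR), without overlap, and NDST2 had 0.15 ± 0.10 (adjusted p = 0.295, edgeR). GLCE, the epimerase that follows, was at 31.1, 35.7 and 34.4 CPM and 35.96, 37.3 and 35.2 CPM (0.10 ± 0.081), with overlap. HS2ST1, which sulphates the uronic acid, rose from 41.6, 41.6 and 42.2 CPM to 50.9, 54.9 and 47.2 CPM (0.29 ± 0.073, adjusted p = 0.00256, edgeR). The siControl libraries lay within 1 CPM of each other and all below the siADNP libraries. HS6ST1 and HS6ST2 sulphate the sixth carbon of glucosamine. HS6ST1 rose from 15.4, 15.1 and 15.7 CPM to 21.1, 20.5 and 21.4 CPM (0.45 ± 0.11, adjusted p = 0.00145, edgeR), while HS6ST2 was at 57.1, 56.8 and 58.6 CPM and 58.3, 58.1 and 57.6 CPM (0.014 ± 0.065, adjusted p = 0.898, edgeR) with the groups intermixed. HS3ST1, which makes the rare sulphate that antithrombin binds, stood at 35.2, 43.2 and 39.3 CPM and 46.5, 46.2 and 44.1 CPM (0.21 ± 0.078, adjusted p = 0.0369, edgeR). Its call ended without siADNP replicate 1 or 2 (adjusted p = 0.0937 and 0.0924), without siControl replicate 1 or 3 (0.246 and 0.0764) and in DESeq2 (0.154), over a range of 0.0118 to 0.246 in its alternatives. SULF2, a secreted sulphatase that removes sulphate of the sixth carbon from finished chains, rose most in this class, from 11.8, 14.4 and 14.3 CPM to 20.3, 21.9 and 24.4 CPM, or from a mean of 13.5 ± 1.49 to 22.2 ± 2.07 CPM (SD, n = 3 each; 0.71 ± 0.11, adjusted p = 8.99e-06, edgeR). Its paralogue SULF1 had 1 read, in siControl replicate 3, over all libraries.

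Among the 5 tested core protein genes, 2 rose, 1 fell and 2 did not pass. Syndecans span the membrane and glypicans are held by a lipid anchor. SDC1, the main syndecan of epithelia, stood at 41.9, 36.7 and 39.4 CPM with siControl and 52.5, 55.6 and 59.4 CPM with siADNP, a rise of 0.51 ± 0.074 on the log2 scale (adjusted p = 1.85e-06, edgeR). SDC4, the syndecan of focal adhesions, fell from 53.4, 51.4 and 49.9 CPM to 28.8, 35.3 and 36.1 CPM, with -0.63 ± 0.080 (adjusted p = 1.52e-07, edgeR), and stood at 64.8% of control. The groups did not overlap in either gene, and they moved in opposite directions. SDC3 was at 69.5, 72.00 and 69.2 CPM and 74.1, 69.8 and 79.7 CPM (0.082 ± 0.064, adjusted p = 0.356, edgeR), with overlap and a log2 fold change of -0.012 with the GC offset. SDC2 had 0 reads in every library, which allows up to 0.292 to 0.406 CPM per library (3 reads, counting error only). GPC1 rose from 46.4, 53.8 and 52.8 CPM to 59.2, 60.1 and 66.02 CPM (0.27 ± 0.071, adjusted p = 0.00325, edgeR), but not with the GC offset (log2 fold change 0.12, adjusted p = 0.204, and 0.211 with the replicate block, in a range from 0.00175 in its alternatives). Its transcript has a GC content of 66.7%. GPC4 was at 15.6, 16.5 and 16.4 CPM and 17.9, 19.9 and 17.9 CPM (0.20 ± 0.11, adjusted p = 0.171, edgeR), the siADNP libraries narrowly above.

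Scaled to the length of the longest annotated transcript, which may not be the form expressed, SDC4 had the highest level of the cores with siControl, at 19.7 ± 0.662 CPM per kb (SD, n = 3), above GPC1 at 13.7 ± 1.08, SDC1 at 11.96 ± 0.797 and SDC3 at 10.99 ± 0.24 CPM per kb. With siADNP the order on this scale was SDC1 at 16.97 ± 1.04, GPC1 at 16.6 ± 0.995, SDC4 at 12.8 ± 1.54 and SDC3 at 11.7 ± 0.78 CPM per kb. GPC4 was lowest in both groups, at 3.26 ± 0.103 and 3.74 ± 0.24 CPM per kb, apart from SDC2, which had no reads. Neighbours in this order whose libraries overlap are GPC1 with SDC1 in both groups, SDC1 with SDC3 in siControl, and SDC4 with SDC3 in siADNP.

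**Figure D3:**
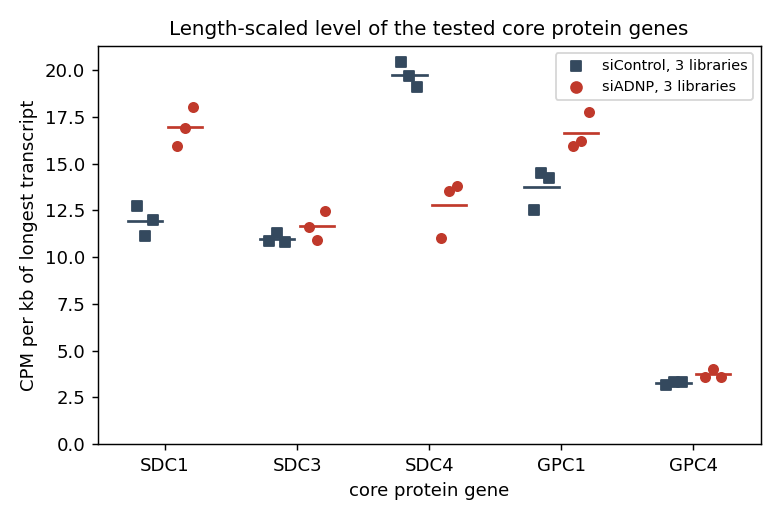
Level of the 5 tested core protein genes in each library, in CPM per kb of the longest transcript, with squares for siControl, circles for siADNP and lines at the group means. The siControl libraries of SDC4 lie between 19.1 and 20.4 CPM per kb and its siADNP libraries between 11.01 and 13.8, while SDC1 lies between 11.1 and 12.7 with siControl and between 15.96 and 18.04 with siADNP.

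The bases before the starts of SDC1 and SDC4 are shown because the 2 syndecans moved in opposite directions. They are from RefSeq, build GRCh38.p14, 250 bases each and 5′ to 3′, with the GC box GGGCGG or its reverse complement CCGCCC in capitals. They lie at chr2:20225476-20225725, minus strand for SDC1, from 1 of its 2 listed starts, and at chr20:45348425-45348674, minus strand for SDC4.
SDC1: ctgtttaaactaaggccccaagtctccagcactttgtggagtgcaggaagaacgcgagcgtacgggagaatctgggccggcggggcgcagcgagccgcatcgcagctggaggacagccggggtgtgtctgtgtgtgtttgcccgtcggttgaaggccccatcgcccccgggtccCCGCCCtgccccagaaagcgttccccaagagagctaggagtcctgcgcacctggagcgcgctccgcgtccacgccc
SDC4: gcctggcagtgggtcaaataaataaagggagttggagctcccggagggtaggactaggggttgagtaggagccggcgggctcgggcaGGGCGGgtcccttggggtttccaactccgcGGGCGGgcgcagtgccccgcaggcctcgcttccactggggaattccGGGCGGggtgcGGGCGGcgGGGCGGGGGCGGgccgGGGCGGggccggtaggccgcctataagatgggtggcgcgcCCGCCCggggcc
The SDC4 window holds 8 GC boxes and the SDC1 window 1. Windows of HS6ST1 and CHST12, which rose, hold 7 and 6. Windows with 2 or more GC boxes were 54.7% of those of members, 40% of those of tested genes and 24.3% of all. Here too a match of letters shows neither a bound factor nor a cause, and it was looked for with the changes known. GGGCGG, read on both strands, was in 81.1% of the 53 windows of members, 64.4% of the windows of tested genes and 42.6% of all windows. Among members it was in 83.3% of the 24 windows of genes that rose and 80.8% of the 26 windows of genes that did not pass.

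Ratios of reads within a library compare related genes without any scaling between libraries. The pairs were chosen after the values were seen, so the ratios are a description with no test. They are not corrected for length. CHPF had 2.42, 2.84 and 3.13 reads for each CHPF2 read in siControl replicates 1 to 3 and 6.56, 8.60 and 7.69 in siADNP replicates 1 to 3. Against CHSY1, the ratio went from 1.37, 1.53 and 1.51 to 3.14, 3.49 and 3.46. SDC1 reads per SDC4 read were 0.786, 0.713 and 0.790 with siControl and 1.83, 1.57 and 1.65 with siADNP, so SDC4 had more reads in every siControl library and SDC1 in every siADNP library. HS6ST1 per HS6ST2 was 0.269, 0.267 and 0.267 against 0.361, 0.353 and 0.372, and CHST14 per DSE was 0.128, 0.121 and 0.118 against 0.190, 0.182 and 0.173. Ratios overlapped between groups for XYLT1 per XYLT2, EXT1 per EXT2, NDST1 per NDST2 and GPC1 per GPC4, whose group means differed by factors of 1.06, 0.973, 0.987 and 1.06.

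**Figure D4:**
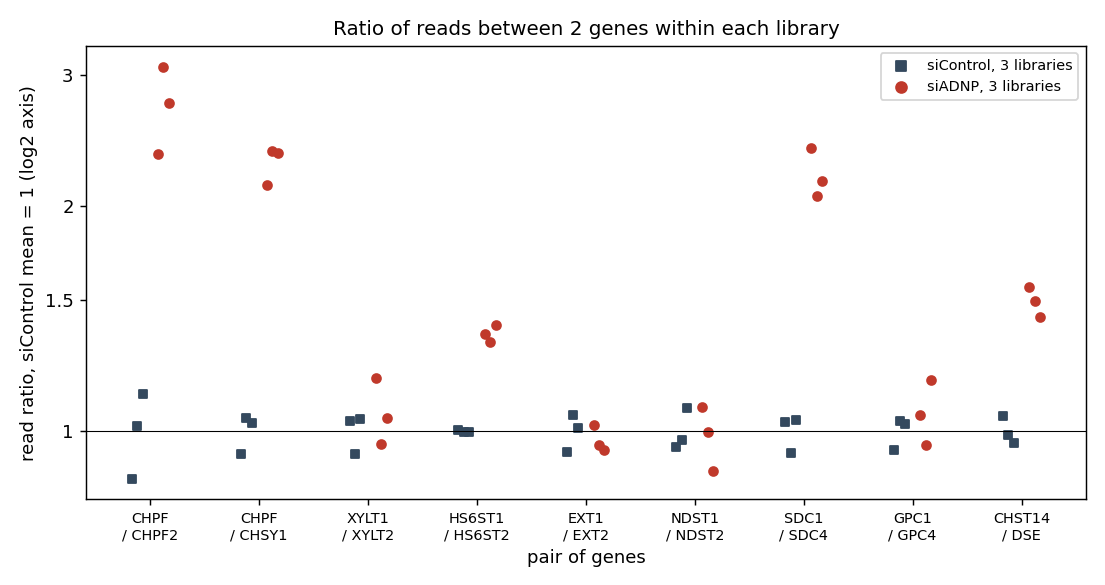
Ratio of reads between 2 genes within each library for 9 pairs, divided by the siControl mean of the pair, on a log2 axis, with squares for siControl and circles for siADNP. The siADNP libraries reach 2.35 to 3.08 for CHPF over CHPF2 and 2.06 to 2.39 for SDC1 over SDC4, while XYLT1 over XYLT2, EXT1 over EXT2, NDST1 over NDST2 and GPC1 over GPC4 overlap around 1.

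Other genes of the pathway, on lists that are not part of the 43, were read in the same test, with the same 28.3% of tested genes called overall. Of 16 tested genes that supply sulphate and sugar donors, 3 rose, 2 fell and 11 did not pass, with a median log2 fold change of -0.087. PAPSS1 and PAPSS2, which make the sulphate donor PAPS, rose with 0.20 and 0.27 (adjusted p = 0.00872 and 0.0159, edgeR), from means of 82.8 ± 3.31 and 29.6 ± 2.77 CPM to 95.1 ± 3.93 and 35.7 ± 2.57 CPM (SD, n = 3 each). PAPSS2 did not pass without siADNP replicate 2 (adjusted p = 0.119), without siControl replicate 1 (0.130) or in DESeq2 (0.0966), over a range of 0.00955 to 0.130 in its alternatives. PGM1, a phosphoglucomutase, rose with 0.33 (adjusted p = 0.000987, edgeR). The 2 that fell were SLC35D1 and SLC35D2, transporters that bring nucleotide sugars into the Golgi and endoplasmic reticulum, with -0.27 and -0.27 (adjusted p = 0.0161 and 0.0335, edgeR). The fall in SLC35D1 did not pass without siControl replicate 2 (adjusted p = 0.0845), without siADNP replicate 1 (0.0961), in DESeq2 (0.0897) or with the GC offset (0.0567, and 0.0577 with the block), in a range from 0.0121. That in SLC35D2, which was named after its values were seen, did not pass with upper-quartile scaling (0.0546), in DESeq2 (0.146), without any 1 siADNP library (0.0642 to 0.0765) or without siControl replicate 1 or 3 (0.0677 and 0.128), in a range from 0.0309.

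Among the remaining transferases and the xylose phosphatase, 3 of 5 tested genes rose and 14 of 19 were below the count filter. Of the rises, CHST1, is no support for the count: it passed the filter only through its siADNP libraries. ACPL2, now named PXYLP1, the phosphatase that removes the phosphate which FAM20B adds, rose from 10.5, 12.2 and 12.2 CPM to 17.98, 21.7 and 21.3 CPM (0.81 ± 0.12, adjusted p = 2.27e-06, edgeR), without overlap. CHST6 and CHST1, sulphotransferases of keratan sulphate, had log2 fold changes of 0.40 and 1.10 (adjusted p = 0.00648 and 0.0338, edgeR). CHST1 was at 0.785, 0.689 and 0.723 CPM with siControl, under the filter's 1.18 CPM, and at 1.80, 1.59 and 1.36 CPM with siADNP. The CHST6 call ended without siADNP replicate 2 (0.0511) and in DESeq2 (0.0523), in a range from 0.00419, and CHST1 lost its call in 8 of 15 alternatives, among them each library left out except siADNP replicate 3 (0.0710 to 0.102), in a range from 0.0298. Of 12 other tested core proteins 4 rose and 8 did not pass. CSPG4, a chondroitin sulphate proteoglycan of the membrane, rose from 15.7, 16.03 and 14.7 CPM to 21.3, 24.9 and 21.96 CPM (0.56 ± 0.11, adjusted p = 0.000126, edgeR). CD44, a hyaluronan receptor that can itself carry chains, rose with 0.23 from 829.8 ± 4.16 to 976 ± 29.6 CPM (SD, n = 3 each), and COL18A1, a basement membrane collagen with heparan sulphate, with 0.43. TGFBR3, the betaglycan coreceptor of TGF-beta, rose with 0.46 (adjusted p = 0.0112, edgeR) with overlapping groups, and not without siADNP replicate 3 (0.140), siControl replicate 1 (0.0625) or siControl replicate 2 (0.0627) or in DESeq2 (0.0686), in a range from 0.00259.

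Genes of hyaluronan gave 2 rises, 1 fall and 4 that did not pass among 7 tested. KIAA1199, now named CEMIP, which promotes hyaluronan breakdown, rose from 4.71, 3.64 and 3.86 CPM to 9.89, 7.59 and 7.999 CPM (1.06 ± 0.19, adjusted p = 3.31e-05, edgeR). The hyaluronidase HYAL2 rose with 0.25 (adjusted p = 0.00778, edgeR) but not with the GC offset (log2 fold change 0.12, adjusted p = 0.200), without siControl replicate 1 (0.0533) or in DESeq2 (0.0536), in a range from 0.00398 to 0.227. HMMR, a hyaluronan-binding protein that also acts on the mitotic spindle, fell with -0.32 (adjusted p = 0.000142, edgeR). Of 14 tested genes of lysosomal and extracellular chain degradation, 5 rose, 1 fell and 8 did not pass, with a median of 0.20. ARSB, which removes sulphate from chondroitin and dermatan, rose from 12.3, 13.2 and 14.7 CPM to 24.5, 21.4 and 24.4 CPM (0.80 ± 0.11, adjusted p = 6.91e-07, edgeR). GALNS, the sulphatase of keratan and chondroitin, rose from 9.75, 7.38 and 9.40 CPM to 16.7, 15.9 and 13.8 CPM (0.82 ± 0.14, adjusted p = 1.78e-05, edgeR). In ARSB and GALNS the siADNP libraries all lay above the siControl libraries. IDS, a sulphatase of heparan and dermatan breakdown, rose with 0.60 (adjusted p = 1.94e-08, edgeR). Heparanase HPSE, which cuts heparan chains, rose with 0.55, and HGSNAT, an acetyltransferase of heparan breakdown, fell with -0.33 (adjusted p = 0.0435, edgeR); these last 2 were named after their values were seen. The HGSNAT call ended in 8 of 16 alternatives, which are upper-quartile scaling (adjusted p = 0.0634), library totals (0.0537), the replicate block (0.0529), DESeq2 (0.180) and leaving out siADNP replicate 2 or 3 (0.120 and 0.104) or siControl replicate 1 or 2 (0.137 and 0.104), in a range from 0.0370.

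**Figure D5:**
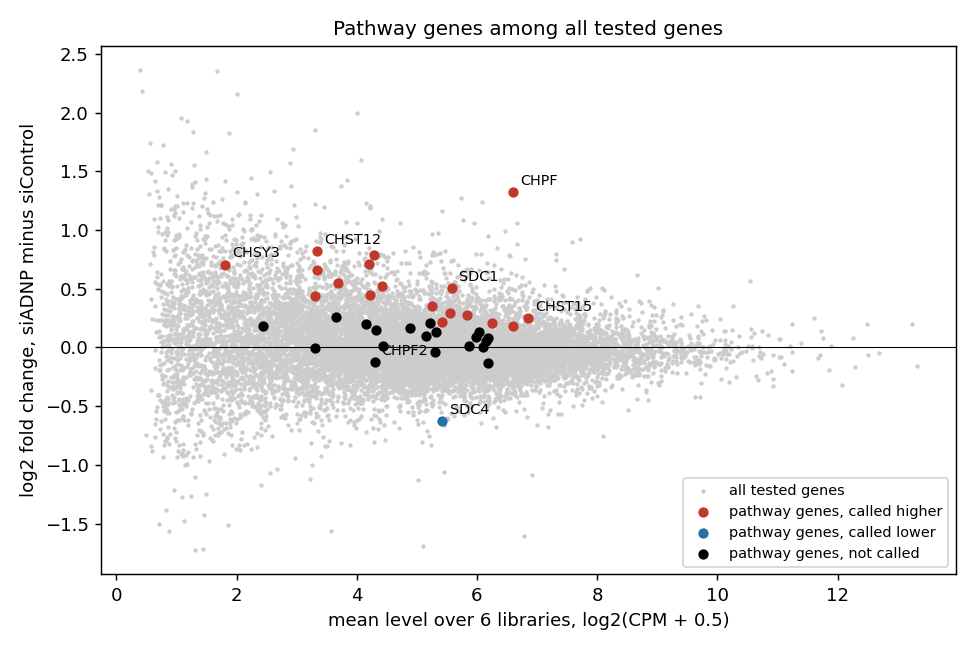
Log2 fold change, siADNP minus siControl, against the mean level over the 6 libraries as log2(CPM + 0.5), for all 12489 tested genes in grey and the 38 tested pathway genes in colour (red called higher, blue called lower, black not called). CHPF stands alone among the pathway genes at 1.32, and most others lie between 0 and 0.82.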

How the data were processed

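RNA sequencing counts were read for 3 siADNP and 3 siControl libraries of HCT116 cells. The deposited counts are reads per gene symbol without normalization, made with STAR and HTSeq on hg19 per the submitters' processing notes; for their versions, the annotation and the strand setting, the sources used here give nothing. The second deposited table holds log2-like variance-stabilized values (DESeq2 is named in the notes) and entered 1 alternative. Lines naming no gene (71.7% to 73.6% of reads) were left out.

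Genes were tested with edgeR 4.0.16 (R 4.3.3; TMM, filterByExpr with a minimum count of 10, glmQLFit and glmQLFTest, two-sided, Benjamini-Hochberg over all tested genes, called under 0.05). Standard errors are the log2 fold change over the square root of F. Levels are CPM with TMM scaling. The members, lists, motifs and naming rule were chosen with earlier results of these data known. The rule gives library values for called members, names members that were not called as paralogues or partners of called ones, and names ADNP and up to 4 called genes with the smallest p per list; lists had no set test. The values of 1 listed gene are not reported here. Members outside the rule (UGDH, UXS1, EXTL2, GLCE and others not called) were named to account for the whole list.

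GC content and length came from the longest GENCODE 29 transcript of each symbol (96.8% of tested genes matched); promoters matched 38 of 43 members. Alternatives were RLE, upper-quartile and no scaling, DESeq2 1.42.0, limma 3.58.1, other filters, a GC offset, a replicate block and each library left out. No 2 libraries held identical counts, and the chi-square per degree of freedom was 1.77 to 2.94 within groups and 6.37 to 8.18 between them. The edgeR script was tested on simulated data. Figures used matplotlib 3.10.9.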

Additional observations from a re-analysis of the deposited data

How the results depend on the processing

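Of 655 refits of the called genes that were followed across settings, 593 kept direction and call, 62 lost the call and 0 reversed. The count of pathway genes called higher, 18, was 14 to 19 under every alternative, and 1 was lower in each except without siADNP replicate 2, where 2 were (leaving out single libraries gave 1 to 2 lower and 15 to 17 higher). DESeq2's Wald test called fewer genes over the whole table (1106 higher and 1079 lower) and kept 15 of the 19 pathway calls, losing XYLT1, CHSY3, EXT2 and HS3ST1. In DESeq2, donor genes gave 0 falls, other transferases 1 rise, hyaluronan genes 1 rise and degradation genes 0 falls; with upper-quartile scaling donor genes gave 1 fall and degradation genes 0, and with library totals degradation genes gave 0. The cause of these differences was not tested. The replicate block gave 18 higher and 1 lower, all 19 calls kept; with the GC offset and the block, 16 of 19 were kept. Same-numbered libraries did not deviate together (correlations over genes of 0.024, -0.035 and -0.029), so the numbers are not taken as pairs. Another scaling moved the median of all genes by no more than 0.025. The count filter, near 1.18 CPM, left 5 of the 43 genes out of the edgeR test, and without it 42 were fitted, all but SDC2, with the same 19 calls kept.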
